A study of Mus musculus with 15 samples.

Results

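The kinases described here are Btk, Tec, Txk, Bmx, Blk and Jak3, the Tec-family and other lymphoid kinases that carry the cysteine to which the leukemia drug ibrutinib binds. They were taken by gene symbol from 2 deposited expression tables, and all 6 were listed in both, among 15869 genes that the tables share. The tables hold RNA sequencing of leukemic spleen cells from Eμ-TCL1 mice, in which the TCL1 oncogene is expressed in B cells, and from Eμ-TCL1;p53R172H/+ mice, which also carry 1 Trp53 allele with the R172H mutation. All mice were C57Bl/6, and their ages at collection are not given in the sources used here. Cells were freed from the spleen by mechanical disruption, with no sort described, and cultured for 24 h with the vehicle DMSO or with 5 μM ibrutinib. The DMSO table holds 3 Eμ-TCL1 libraries (replicates 2, 3 and 4) and 5 Eμ-TCL1;p53R172H/+ libraries (replicates 1 to 5), and the ibrutinib table holds 3 (replicates 1, 3 and 4) and 4 (replicates 1, 3, 4 and 5). Values are in CPM, reads per gene scaled within each table to an effective library size, so the 2 treatments are set side by side without a test. The comparisons address whether the transcripts of the kinases that the drug can occupy differed in level between the genotypes, with and without the drug.

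Ibrutinib forms a covalent bond with a cysteine beside the ATP pocket of Bruton's tyrosine kinase, BTK, and thereby blocks signaling from the B-cell receptor, on which chronic lymphocytic leukemia cells depend. Few kinases have a cysteine at this place. TEC, TXK and BMX belong to the same family as BTK and are used by B cells, T cells and cells of the myeloid and endothelial lineages, BLK is a SRC-family kinase of B cells, and JAK3 serves the receptors of cytokines that share the common gamma chain. A transcript level says how much mRNA a sample held, not how much kinase was present or bound.

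The codon of the drug's cysteine is what the 6 kinases share, and its surroundings are shown for that reason. The sequences were read from GENCODE M21 transcripts (GRCm38), 7 codons to each side on the coding strand, with the codon that aligns with codon 481 of Btk in capitals. Lyn, a SRC-family kinase with a serine codon there, is shown for contrast.
Btk: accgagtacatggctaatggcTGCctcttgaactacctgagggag
Tec: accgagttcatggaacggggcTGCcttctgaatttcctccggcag
Txk: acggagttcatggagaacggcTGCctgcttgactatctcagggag
Bmx: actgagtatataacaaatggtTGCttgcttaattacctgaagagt
Blk: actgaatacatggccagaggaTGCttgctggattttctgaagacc
Jak3: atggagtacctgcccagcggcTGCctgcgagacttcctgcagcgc
Lyn: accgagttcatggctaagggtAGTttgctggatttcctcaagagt

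All 6 kinases used the codon TGC for cysteine at this place, whereas 11 of 11 related kinases without the drug's cysteine (among them Lyn, Fyn, Lck, Fgr, Src, Yes1, Jak1, Jak2, Tyk2 and Csk) had a serine codon, AGT or AGC. The 6 were chosen as having this cysteine and the 11 as lacking it, so only the codon used and the serine were open. Of the 45 bases shown, Btk shared 34 with Txk, 32 with Tec, 30 with Bmx, 28 with Blk and 27 with Jak3. Over the residues that could be aligned after translation, identity to Btk was 58.2% for Tec, 56.0% for Txk, 52.0% for Bmx, 40.0% for Blk and 33.6% for Jak3. Across the gaps of these alignments, 1 further position of Btk, codon 633, held cysteine in all 6.

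In the GRCm38 assembly, Btk (ENSMUSG00000031264) lies on the minus strand at chrX:134542336-134583570 and its cysteine codon at chrX:134549538-134549540, in coding exon sequence of exon 15. Tec (ENSMUSG00000029217) spans chr5:72755716-72868483 on the minus strand, with the codon at chr5:72763687-72763689 in exon 15. Txk (ENSMUSG00000054892) is its neighbor at chr5:72695978-72752777, 2938 bases away on the same strand, with the codon at chr5:72707643-72707645 in exon 11. Bmx (ENSMUSG00000031377) lies on the minus strand at chrX:164192842-164258193, with the codon at chrX:164205291-164205293 in exon 15. The codon of Blk (ENSMUSG00000014453, minus strand, chr14:63372836-63417037) stands at chr14:63378540-63378542, and the stretch printed above joins exons 9 and 10. Jak3 (ENSMUSG00000031805) lies on the plus strand at chr8:71676296-71690575, with the codon at chr8:71685793-71685795 in exon 20. The annotation places Insl3 within Jak3 on the same strand, and Btk and Txk each overlap a pseudogene on the other strand, and Tec overlaps Gm43499 on the same strand. Whether the counting used strand is not given in the sources used here, so reads from these overlaps cannot be told apart.

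The libraries differed in their levels of cell-type markers, and the part of this in the levels of the kinases below was not tested. The summed level of 8 B-cell markers was between 3350.3 and 5920.1 in 5 of the 8 DMSO libraries, but 266.1 and 262.2 in Eμ-TCL1;p53R172H/+ replicates 1 and 2 and 509.1 in Eμ-TCL1 replicate 2. In those same Eμ-TCL1;p53R172H/+ libraries 9 T-cell markers summed to 2136.3 and 2875.5, against at most 506.2 in the other 6, with Cd8a at 266.2 and 298.1 and Cd4 at 2.0 and 4.4. In Eμ-TCL1 replicate 2 the 9 listed myeloid markers summed to 29082.1 and the 6 erythroid markers to 4718.6, against at most 252.7 and 21.0 elsewhere in DMSO. In ibrutinib, Eμ-TCL1;p53R172H/+ replicate 1 had a B-cell sum of 64.1 and a T-cell sum of 1418.9, and Eμ-TCL1 replicate 1 had a myeloid sum of 20567.8. T-cell markers summed to 519.0 or more in all 4 Eμ-TCL1;p53R172H/+ libraries in ibrutinib and to between 181.2 and 535.7 in Eμ-TCL1. These 5 libraries are called T-cell-rich (Eμ-TCL1;p53R172H/+ replicates 1 and 2 in DMSO and 1 in ibrutinib) and myeloid-rich (Eμ-TCL1 replicate 2 in DMSO and 1 in ibrutinib) below, and values are also given without them. The myeloid-rich libraries of both treatments, although numbered differently, had a Pearson correlation of 0.991 over 15869 genes on the log2 scale, above the 0.962 and 0.973 of the like-numbered Eμ-TCL1 pairs. Sex-linked transcripts also differed with genotype, with Ddx3y at 0 in all 6 Eμ-TCL1 libraries and between 75.1 and 177.3 in 6 of the 9 Eμ-TCL1;p53R172H/+ libraries. Btk and Bmx lie on chromosome X, and the part of sex in their levels was not tested. For Eμ-TCL1;p53R172H/+ replicate 3, Ddx3y went from 0.1 to 82.1 between the DMSO and the ibrutinib library, and Xist went from 1491.3 to 1.0, so that these like-numbered libraries came from animals of different sex. In bulk RNA, fewer cells of a type and less RNA per cell cannot be told apart.

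**Figure D1:**
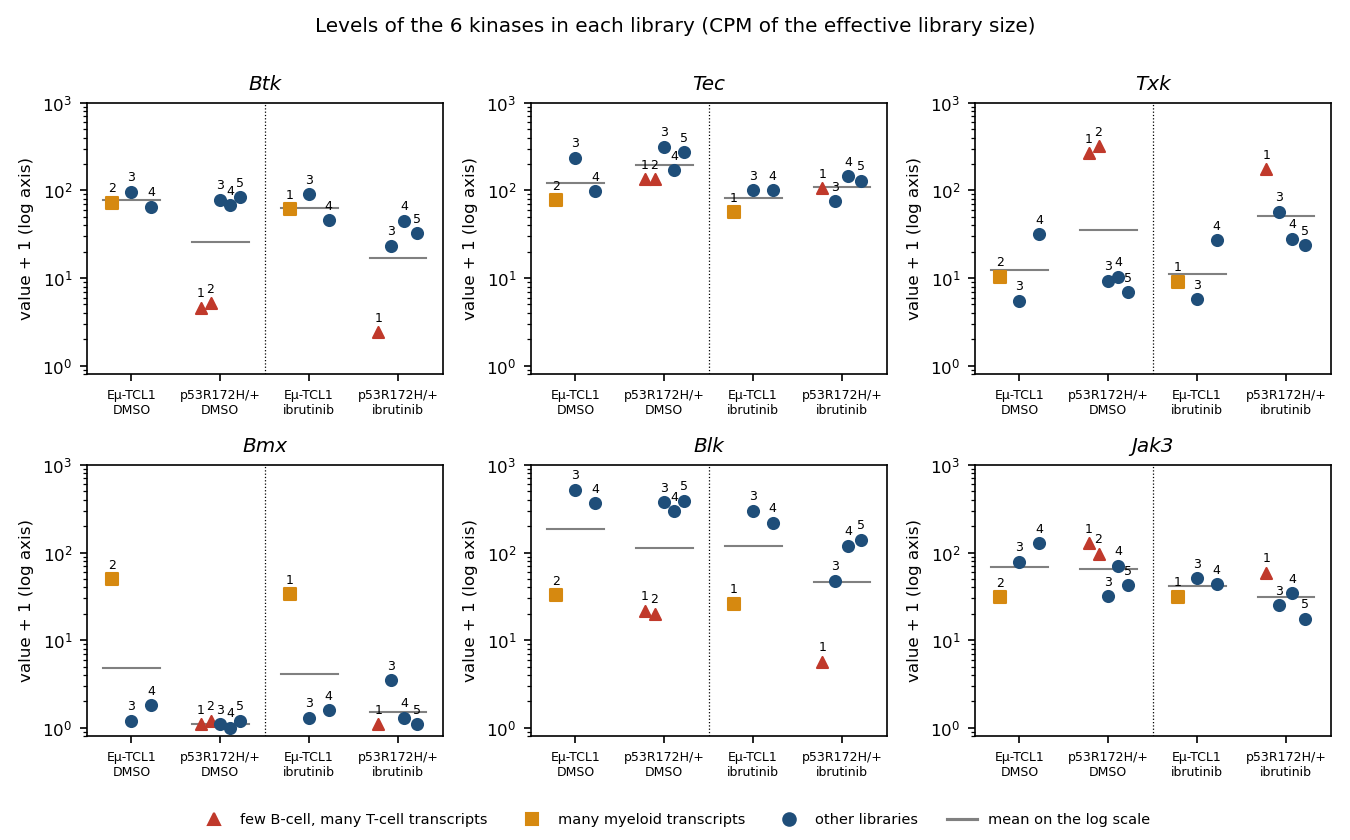
Value of each kinase plus 1 (CPM of the effective library size, log axis) in the 15 libraries, by genotype and treatment, where numbers are replicates, grey lines are means on the log scale, red triangles are T-cell-rich and orange squares myeloid-rich libraries. Btk and Blk were lowest and Txk highest in the red libraries, and Bmx stood above 30 only in the orange ones.

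Btk, the main target of the drug and the kinase that relays the B-cell receptor signal to phospholipase C, was present at similar levels in all DMSO libraries but the T-cell-rich ones. Its value in DMSO was 71.4, 95.4 and 64.2 in Eμ-TCL1 replicates 2, 3 and 4. In Eμ-TCL1;p53R172H/+ replicates 1 to 5 it was 3.6, 4.2, 77.8, 67.3 and 83.2. The low values of replicates 1 and 2 were those of the T-cell-rich libraries, and the other 3 lay within the range of Eμ-TCL1. The log2 difference, given throughout as Eμ-TCL1;p53R172H/+ minus Eμ-TCL1 on the scale of the value plus 1, was -1.59 with a standard error of 1.11, which did not pass (limma over all genes of the table, Benjamini-Hochberg adjusted p = 0.652).

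In ibrutinib, Btk was 60.3, 89.1 and 44.4 in Eμ-TCL1 replicates 1, 3 and 4 and 1.4, 22.3, 44.0 and 31.3 in Eμ-TCL1;p53R172H/+ replicates 1, 3, 4 and 5. The groups did not overlap, but the nearest libraries were 0.4 apart. Btk was the 1 kinase of the 6 with no overlap in this table, where 12.7% of all genes had none and 5.97% had none with Eμ-TCL1;p53R172H/+ lower. The log2 difference was -1.90 with a standard error of 0.97 (limma, adjusted p = 0.473), and an exact permutation test of the mean difference gave p = 0.114, where the 35 splits allow no p below 0.0286. Without the T-cell-rich and myeloid-rich libraries the difference was -0.98 in ibrutinib (limma, adjusted p = 0.299) and -0.05 in DMSO (limma, adjusted p = 0.939). B-cell marker sums in ibrutinib, from 64.1 to 1532.0 in Eμ-TCL1;p53R172H/+ and from 401.0 to 3415.0 in Eμ-TCL1, moved with it, and their part in the difference was not tested.

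Blk, the B-cell kinase of the SRC family, spanned a wide range in both genotypes. In DMSO it was 31.6, 520.7 and 365.6 in the Eμ-TCL1 libraries. The Eμ-TCL1;p53R172H/+ libraries had 20.7, 19.1, 376.6, 297.1 and 388.5. Both groups thus held low and high libraries, the low ones being the T-cell-rich and myeloid-rich libraries, and the groups overlapped. The log2 difference was -0.69 (standard error 1.37, limma, adjusted p = 0.869), with a 95% interval from -3.83 to 2.44.

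In ibrutinib, Blk was 25.1, 299.5 and 217.0 in Eμ-TCL1 and 4.7, 46.7, 119.2 and 139.1 in Eμ-TCL1;p53R172H/+. The highest Eμ-TCL1;p53R172H/+ value lay below Eμ-TCL1 replicates 3 and 4 and above the myeloid-rich replicate 1. The log2 difference was -1.37 (standard error 1.30, limma, adjusted p = 0.649). Without the T-cell-rich and myeloid-rich libraries it was -1.46 (limma, adjusted p = 0.246). Unlike Btk, Blk was low in the myeloid-rich libraries too.

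Tec, the founding member of the family and active downstream of antigen and cytokine receptors, spanned the narrowest range of the 5 kinases with values above 1 in every library. Its DMSO values were 76.7, 236.5 and 97.3 in Eμ-TCL1 and 133.1, 134.2, 313.8, 170.4 and 273.9 in Eμ-TCL1;p53R172H/+. The highest value of the table was 4.09 times the lowest, against 26.5 times for Btk, 4.28 times for Jak3, 27.3 times for Blk and 71.0 times for Txk. In ibrutinib the values were 55.2, 99.3 and 100.3 in Eμ-TCL1 and 105.6, 73.8, 143.4 and 127.5 in Eμ-TCL1;p53R172H/+, where 3 of 4 libraries lay above all Eμ-TCL1 libraries. The groups overlapped in both tables, with log2 differences of 0.66 in DMSO (standard error 0.45, limma, adjusted p = 0.647) and 0.41 in ibrutinib (standard error 0.31, limma, adjusted p = 0.587). Without the T-cell-rich and myeloid-rich libraries they were 0.69 (limma, adjusted p = 0.535) and 0.15 (limma, adjusted p = 0.847). With each library left out in turn the difference ran from 0.34 to 1.14 in DMSO and from 0.13 to 0.60 in ibrutinib.

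Txk, the family member of T cells and natural killer cells, was highest where T-cell markers were. In DMSO it was 9.4, 4.5 and 30.9 in Eμ-TCL1 and 266.4, 319.3, 8.3, 9.4 and 5.9 in Eμ-TCL1;p53R172H/+. The T-cell-rich replicates 1 and 2 stood far above the rest, and the other 3 fell within the Eμ-TCL1 range. Natural killer markers also summed to 876.6 and 920.8 in replicates 1 and 2, against at most 85.8 elsewhere in DMSO, though Ncr1 of that list was 0 in both. The log2 difference of 1.54 (standard error 1.48, limma, adjusted p = 0.721) turned to -0.60 without the T-cell-rich and myeloid-rich libraries (limma, adjusted p = 0.736).

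In ibrutinib, Txk was 8.1, 4.7 and 25.9 in Eμ-TCL1. It was 172.8, 56.1, 27.2 and 22.8 in Eμ-TCL1;p53R172H/+, so that Eμ-TCL1 replicate 4 lay above the lowest of these. The log2 difference was 2.18 (standard error 0.80, 95% interval 0.32 to 4.05). Txk was the only kinase of the 6 with an unadjusted p under 0.05 by limma in this table, and its adjusted p was 0.353. The unadjusted level was reached by 12% of all genes, 5.69% with Eμ-TCL1;p53R172H/+ higher and 6.32% with it lower. Without the 2 libraries named above it was 1.45 (limma, adjusted p = 0.388). T-cell marker sums were higher in this group as well, as given above. Natural killer marker sums were 68.4 to 462.3 in this group and 14.8 to 64.1 in Eμ-TCL1, and the part of either list was not tested.

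Bmx, a kinase of myeloid and endothelial cells, was near 0 outside the myeloid-rich libraries. In DMSO it was 48.9 in Eμ-TCL1 replicate 2 and 0.2 and 0.8 in replicates 3 and 4, and in Eμ-TCL1;p53R172H/+ it was 0.1, 0.2, 0.1, 0 and 0.2. In ibrutinib it was 32.5 in Eμ-TCL1 replicate 1 and 0.3 and 0.6 in replicates 3 and 4. The Eμ-TCL1;p53R172H/+ values there were 0.1, 2.5, 0.3 and 0.1, with the 2.5 in replicate 3. That library had a myeloid sum of 1157.4, the highest of its group. The log2 differences of -2.09 in DMSO (standard error 1.06, limma, adjusted p = 0.637) and -1.43 in ibrutinib (standard error 1.13, limma, adjusted p = 0.605) rested on 1 library each, and were -0.42 and 0.25 without the T-cell-rich and myeloid-rich libraries. Other marker lists moved with Bmx as well. The endothelial sum, from 52.9 to 197.2 over all 15 libraries, was mostly Pecam1, at 52.1 to 193.2, which other blood cells also express. Vwf, made by endothelial cells and megakaryocytes, was 34.6 and 39.5 in the myeloid-rich libraries of DMSO and ibrutinib, against at most 8.3 and 15.8 in the others. The mean log2 level of the endothelial list was highest there too, at 2.81 and 2.77, and megakaryocyte and platelet markers summed to 86.9 and 93.1, against at most 9.4 and 67.8 elsewhere. The part of these cells in the Bmx level was not tested.

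Jak3, the kinase bound to the common gamma chain, was present in all libraries. In DMSO it was 29.8, 77.5 and 127.4 in Eμ-TCL1 and 126.3, 96.5, 30.7, 70.0 and 41.7 in Eμ-TCL1;p53R172H/+. High and low values occurred in both genotypes. The 2 T-cell-rich libraries had the highest Jak3 of their group, and the myeloid-rich library had the lowest of the table. In ibrutinib the values were 30.2, 50 and 42.8 against 58, 23.9, 33.6 and 16.5, again overlapping, with the highest in the T-cell-rich replicate 1. The log2 difference was -0.05 in DMSO (standard error 0.58, limma, adjusted p = 0.982) and -0.42 in ibrutinib (standard error 0.41, limma, adjusted p = 0.657). Without the T-cell-rich and myeloid-rich libraries it was -1.13 in DMSO (limma, adjusted p = 0.293) and -0.94 in ibrutinib (limma, adjusted p = 0.231).

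**Figure D2:**
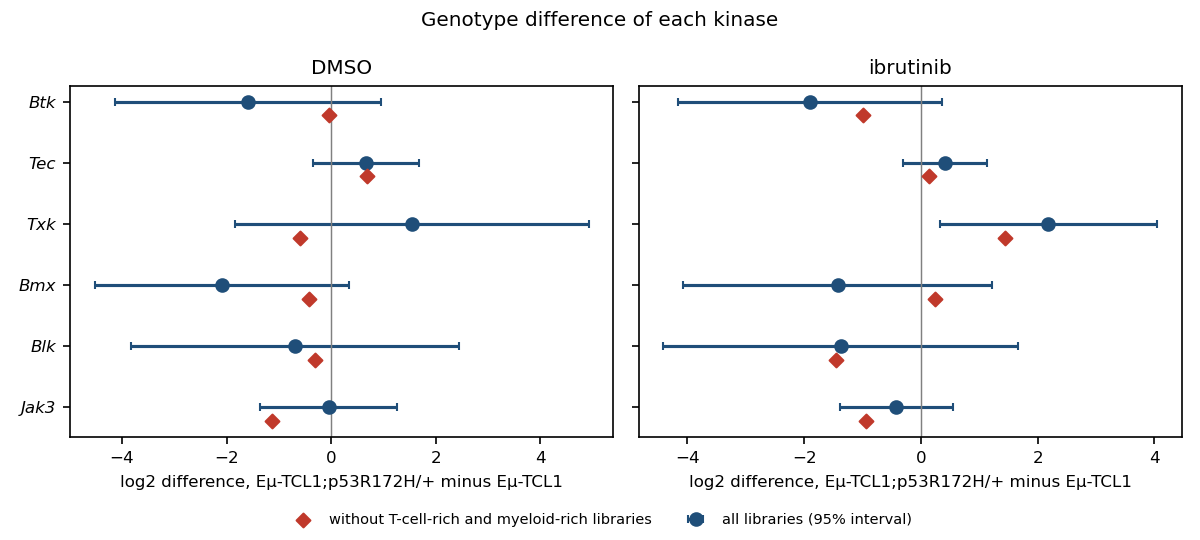
Log2 difference of each kinase between genotypes (Eμ-TCL1;p53R172H/+ minus Eμ-TCL1, horizontal axis) in DMSO and ibrutinib, with blue points and 95% intervals for all libraries and red diamonds for the value without the T-cell-rich and myeloid-rich libraries. All blue intervals but that of Txk in ibrutinib span 0, and the red diamond of Txk lies on the other side of 0 from the blue point in DMSO, as does that of Bmx in ibrutinib.

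No kinase passed between genotypes. By limma, 0 of 6 had an adjusted p under 0.05 in DMSO, where 0.0121% of all genes passed with Eμ-TCL1;p53R172H/+ lower and 0% with it higher. In ibrutinib 0 of 6 passed, as did 0% of all genes. At an unadjusted p under 0.05 the counts were 0 of 6 in DMSO, against 8.17% of all genes (3.52% higher, 4.65% lower), and 1 of 6 in ibrutinib, against 12%. The genotypes did not overlap in 0 of 6 kinases in DMSO, against 6.45% of all genes (3.52% higher, 2.93% lower). The median log2 difference of the 6 was -0.37 in DMSO and -0.90 in ibrutinib, beside 0.04 and -0.05 over all genes, and 4 of the 6 were below 0 in each table. In exact permutation tests of the single values, the smallest of the 12 p-values was 0.0536, for Bmx in DMSO, and the smallest adjusted p was 0.457. These tests allow no p below 0.0179 in DMSO and 0.0286 in ibrutinib, so a kinase alone could not pass after adjustment. Nothing in the labels says how the replicates were drawn beyond their numbers, so p-values measure the spread between these samples.

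The genotype difference was also compared between the treatments, and 0 of 6 kinases passed. The interaction, the difference in ibrutinib minus that in DMSO on the log2 scale, was -0.31 for Btk, -0.25 for Tec, 0.64 for Txk, 0.66 for Bmx, -0.68 for Blk and -0.37 for Jak3. By limma, 0 of 6 passed, all with an adjusted p of 1, and 0 of 6 had an unadjusted p under 0.05, against 0% and 0.523% of all 15869 genes (0.176% above 0, 0.347% below 0). The intervals were wide, from -3.78 to 3.16 for Btk and from -5.11 to 3.76 for Blk, the widest of the 6.

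That fit takes all 15 libraries as independent, but most libraries with the same genotype and number deviated together from their group means in both treatments. The correlations of these deviations were 0.83 and 0.84 for Eμ-TCL1 replicates 3 and 4, and 0.80, -0.11, 0.75 and 0.77 for Eμ-TCL1;p53R172H/+ replicates 1, 3, 4 and 5, the -0.11 being that of the replicate with unlike sex-linked transcripts. Libraries of unlike number were not correlated across treatments. The Eμ-TCL1 means include a myeloid-rich library and the Eμ-TCL1;p53R172H/+ means T-cell-rich ones, which can make unlike numbers deviate alike too. These correlations therefore do not settle whether like-numbered libraries are pairs. The log2 level of Btk in ibrutinib minus that in DMSO was -0.10 and -0.52 in the 2 Eμ-TCL1 pairs and -0.94, -1.76, -0.60 and -1.38 in the 4 Eμ-TCL1;p53R172H/+ pairs, in the same order. For Blk it was -0.80 and -0.75 in Eμ-TCL1 and -1.93, -2.98, -1.31 and -1.48 in Eμ-TCL1;p53R172H/+. All pairs were thus below 0 for both kinases, where a constant from the separate scaling is part of every value. The mean log2 level of the B-cell markers moved with them, by -0.53 and -0.66 in Eμ-TCL1 and by -1.80, -2.57, -1.28 and -1.33 in Eμ-TCL1;p53R172H/+, and its part was not tested. With the pair as a block, over the 12 libraries that form pairs, the interaction was -0.86 for Btk and -1.15 for Blk (limma, adjusted p = 0.870 for each), with 1.403 for Txk, 0.51 for Bmx, -0.34 for Tec and 0.14 for Jak3. By limma, 0 of 6 passed, and 2 of 6, Btk and Blk, had an unadjusted p under 0.05, against 4.97% of all genes. Without the pair of Eμ-TCL1;p53R172H/+ replicate 3 the interaction was -0.66 for Btk and -0.80 for Blk (limma, adjusted p = 1 for each), and 1 of 6, Blk, reached the unadjusted level, against 4.24% of all genes. An exact permutation test of the pair differences gave p = 0.133 for Btk and for Blk, where 15 splits allow no p below 0.0667, and the adjusted p over the 6 kinases was 0.4 for each. Without that pair the exact permutation p was 0.2 and 0.1, the latter the smallest that 10 splits allow.

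Set side by side with no test, the group medians were lower in ibrutinib than in DMSO for Btk, Blk and Jak3 in both genotypes. For Btk they were 71.4 in DMSO and 60.3 in ibrutinib in Eμ-TCL1, and 67.3 and 26.8 in Eμ-TCL1;p53R172H/+. For Blk they were 365.6 and 217.0, and 297.1 and 82.95. Jak3 had medians of 77.5 and 42.8, and 70.0 and 28.75. The B-cell marker sums had medians of 4487.8 and 2622.2, and 3350.3 and 913.0, in the same order of groups. Tec had medians of 97.3 and 99.3 in Eμ-TCL1 and 170.4 and 116.55 in Eμ-TCL1;p53R172H/+. Txk had medians of 9.4 and 8.1 in Eμ-TCL1 and 9.4 and 41.65 in Eμ-TCL1;p53R172H/+. The tables were scaled apart and hold partly different replicates, so a treatment effect and these differences cannot be told apart.

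Per length of the transcript, the 6 kinases could be ranked within a library. Blk led in all 5 B-cell-rich DMSO libraries, with between 50.3% and 60.2% of the summed level per kilobase. Txk led in the 3 T-cell-rich libraries with 56.2%, 62.6% and 57.4%. In the myeloid-rich libraries Tec led in DMSO with 29.3% and Btk in ibrutinib with 30.7%. In the Eμ-TCL1;p53R172H/+ libraries treated with ibrutinib, Tec led in replicates 3 and 4 with 31.5% and 37.7% and Blk in replicate 5 with 44.5%, whereas Blk led in Eμ-TCL1 replicates 3 and 4 with 59.7% and 54.6%.

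**Figure D3:**
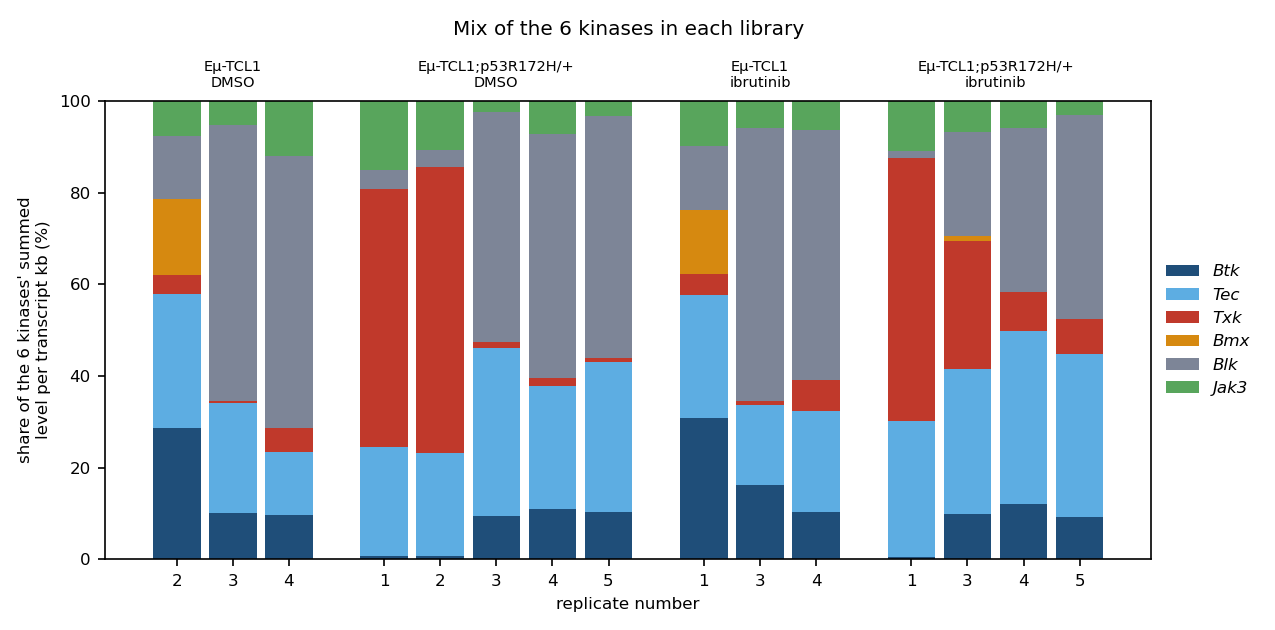
Share of each kinase in the summed level of the 6 per kilobase of transcript (vertical axis, percent) in each library, ordered by group and replicate number. Blk (grey) takes the largest share in the 5 B-cell-rich DMSO libraries, Txk (red) takes 56.2% to 62.6% in the T-cell-rich libraries, and Bmx (orange) is wide only in the myeloid-rich ones.

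By group medians per kilobase of transcript, the order in Eμ-TCL1 was Blk, Tec, Btk, Jak3, Txk and Bmx in both treatments. In DMSO these medians were 157, 36.6, 28.1, 19.3, 4.16 and 0.266, and the ranges of neighbors in the order overlapped in 5 of 5 pairs. Eμ-TCL1;p53R172H/+ had the same order in DMSO, with Tec at 64.1 above Btk at 26.5 and Txk above Bmx without overlap and the other 3 pairs overlapping. In ibrutinib the Eμ-TCL1;p53R172H/+ order was Tec, Blk, Txk, Btk, Jak3 and Bmx, where only Jak3 and Bmx did not overlap. The order depended on the length used. The annotation gives Txk 2.26 kb in its longest coding transcript and 10.955 kb over all exon models, and with the latter Tec led in the 3 T-cell-rich libraries, Btk in the myeloid-rich DMSO library and Blk in Eμ-TCL1;p53R172H/+ replicate 4 in ibrutinib.

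Within a library, levels can be compared with the markers of a cell type without regard to scaling. Blk kept close to the B-cell markers, and its log2 level minus their mean log2 level lay between -0.82 and 0.18 over all 15 libraries, while Blk itself spanned 27.3 times in DMSO and 63.7 times in ibrutinib. In DMSO this relative level averaged -0.25 ± 0.46 (SD, n = 3) for Eμ-TCL1 libraries and -0.10 ± 0.27 (SD, n = 5) for Eμ-TCL1;p53R172H/+ libraries (exact permutation test, p = 0.607). In ibrutinib it was -0.38 ± 0.39 (SD, n = 3) and -0.22 ± 0.18 (SD, n = 4) (exact permutation test, p = 0.6). The lowest values, -0.77 and -0.82, were those of the myeloid-rich libraries.

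Btk relative to the B-cell markers lay between -2.54 and -1.27 on the log2 scale in 13 libraries, but at 0.38 and 0.41 in the myeloid-rich libraries. Its mean in DMSO was -1.505 ± 1.63 (SD, n = 3) for Eμ-TCL1 libraries and -2.26 ± 0.20 (SD, n = 5) for Eμ-TCL1;p53R172H/+ libraries (exact permutation test, p = 0.357), and the means differed by -0.38 in ibrutinib (exact permutation test, p = 0.8286). Txk relative to the T-cell markers lay between -1.43 and 0.78, with 0.78, 0.59 and 0.71 in the T-cell-rich libraries and values below 0 in the other 12. Tec and Jak3 followed neither list, and the range of their relative level was 5.86 and 6.45 on the log2 scale for B-cell markers and 4.96 and 4.71 for T-cell markers.

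**Figure D4:**
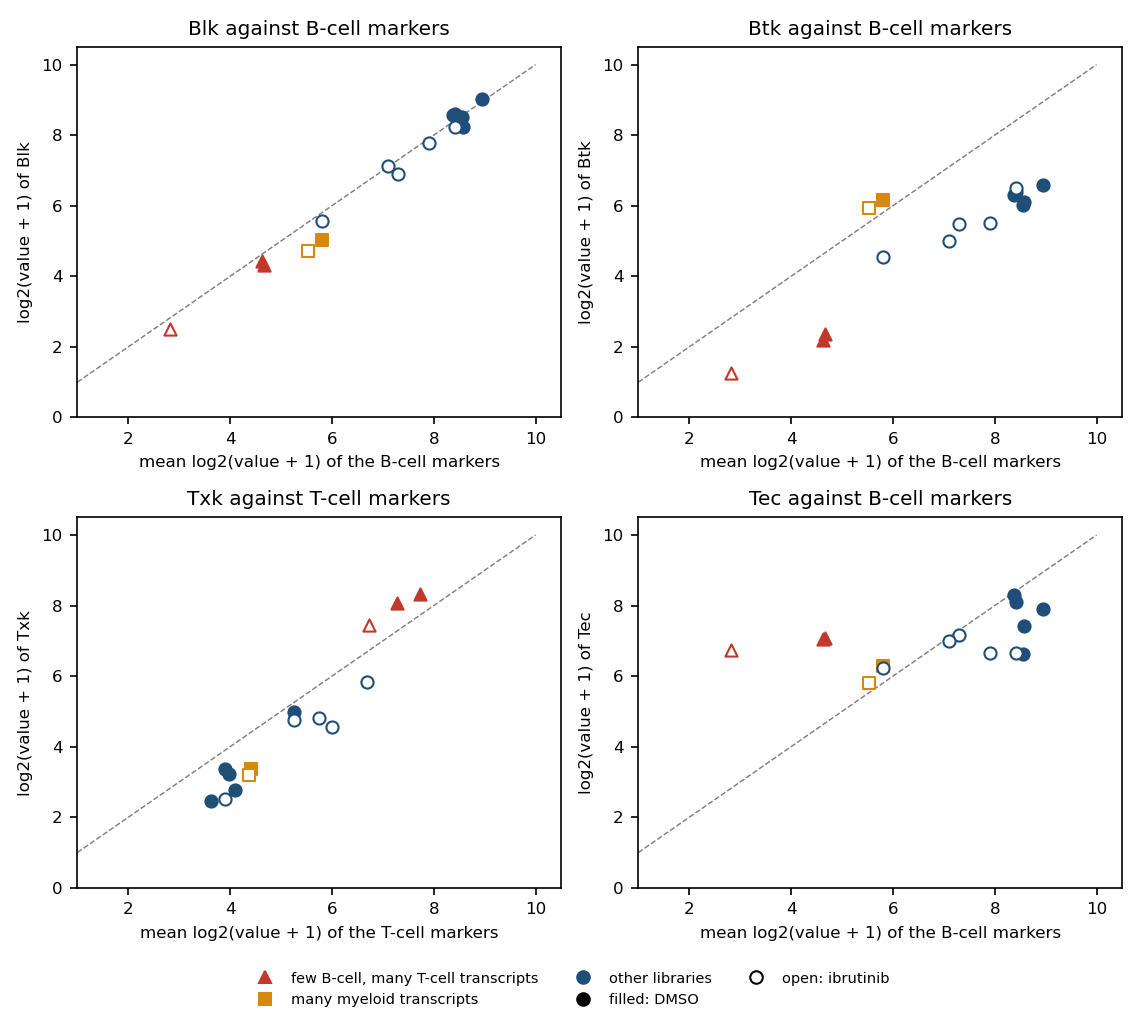
Log2 level (value + 1) of Blk, Btk and Tec against the mean log2 level of the B-cell markers, and of Txk against that of the T-cell markers, in 15 libraries, filled for DMSO and open for ibrutinib, with colors for T-cell-rich (red) and myeloid-rich (orange) libraries and a dashed line of equality. Blk lies near the line throughout, and Btk runs below it except in the orange libraries. Tec spans 5.81 to 8.30, while the mean of the B-cell markers spans 2.82 to 8.94.

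Of 14 such tests of a relative level between genotypes, 0 passed after adjustment. They allow no p below 0.0179 in DMSO and 0.0286 in ibrutinib, so a kinase alone could not pass. The smallest p was that of Jak3 relative to T-cell markers in ibrutinib, with values of 0.60, 1.76 and 0.19 in Eμ-TCL1 and -0.85, -2.04, -0.64 and -1.88 in Eμ-TCL1;p53R172H/+. Every Eμ-TCL1 library lay above every Eμ-TCL1;p53R172H/+ library, and the difference was -2.20 (exact permutation test, p = 0.0286, the smallest these 35 splits can give, adjusted p = 0.4). Without the T-cell-rich and myeloid-rich libraries it was -2.50, with p = 0.1 by the exact permutation test. The T-cell marker sum itself was higher in Eμ-TCL1;p53R172H/+ in ibrutinib, as above, while Jak3 was -0.42 apart on the log2 scale.

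Other kinases have a cysteine at the same place. Map2k7, an activator of the JNK pathway, has TGT at codon 218, while Egfr, a growth factor receptor, was listed in DMSO only, at no more than 1.1, and Erbb2 and Erbb4 were not listed. Map2k7 was 31.5, 47.5 and 51.7 in Eμ-TCL1 and 65.8, 70.8, 44.1, 51.3 and 54.5 in Eμ-TCL1;p53R172H/+ in DMSO. In ibrutinib it was 28.5, 38.3 and 46.1 against 53.6, 47.5, 45.5 and 47.1. The T-cell-rich libraries had the highest Map2k7 in each table, and the groups overlapped in both. The log2 difference of Map2k7 was 0.40 in DMSO (limma, adjusted p = 0.645) and 0.38 in ibrutinib (limma, adjusted p = 0.470), with an interaction of -0.02. Egfr differed by -0.38 in DMSO (limma, adjusted p = 0.645).

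Among the 11 related kinases with serine in place of the cysteine, 0 passed in either table. At an unadjusted p under 0.05, 0 were higher and 1 lower in DMSO, and 3 were higher and 2 lower in ibrutinib, with medians of -0.27 and -0.30. Over all genes these shares were 3.52% higher and 4.65% lower in DMSO and 5.69% higher and 6.32% lower in ibrutinib. The lowest p-values in DMSO belonged to Fgr, a myeloid SRC-family kinase, at -2.77, and Lyn, the main such kinase of B cells, at -1.74, among those below 0, and to Lck, the T-cell kinase, at 1.66 and Jak1 at 0.67 among those above 0. In ibrutinib they belonged to Lck at 2.10 and Fyn, also used by T cells, at 1.73, and to Tyk2 at -0.48 and Csk, an inhibitor of SRC kinases, at -0.59. For the interaction they were Src at 0.44, Jak2 at 0.22, Tyk2 at -0.34 and Csk at -0.31.

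Partners of BTK in B-cell receptor signaling numbered 16, and 0 passed in either table. In ibrutinib 14 of 16 were below 0, as were 8937 of 16428 genes. The median log2 difference was -1.14, against -0.05 over all genes. All 8 B-cell markers, some of them the same genes, were below 0 too, with a median of -1.52, and their part was not tested. Of the 16, 5 did not overlap and 2 had an unadjusted p under 0.05. Over all genes, 5.97% had no overlap with Eμ-TCL1;p53R172H/+ lower and 6.32% reached the unadjusted level in that direction. Dapp1, an adaptor at the membrane of activated B cells, had the lowest p of the list in both tables. It was 70.7, 88.2 and 81.6 in Eμ-TCL1 and 35.5, 35.4, 57.3, 51.2 and 49.6 in Eμ-TCL1;p53R172H/+ in DMSO, and 55.5, 76.8 and 72.4 against 26.7, 32, 35.5 and 37.1 in ibrutinib. The groups did not overlap in either table, with the T-cell-rich libraries lowest of their group, and the differences of -0.82 (limma, adjusted p = 0.429) and -1.03 (limma, adjusted p = 0.165) did not pass. The next were Syk, the kinase upstream of BTK, at -2.28 in DMSO and Prkcb, a protein kinase C of B cells, at -1.17 in ibrutinib. Above 0 were Pik3ap1 at 0.60 in DMSO and Pik3cd at 0.39 in ibrutinib, and for the interaction Pik3ap1 was at -1.22 and Vav1 at -0.50. None of the 16 was above 0 for the interaction, nor was any of the 8 B-cell markers, and 9379 of 15869 genes were below 0.

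Of 13 partners of JAK3, 0 passed. At an unadjusted p under 0.05 there were 0 higher and 1 lower in DMSO, and 3 higher and 2 lower in ibrutinib, with medians of 0.13 and 0.22, beside the shares of all genes given for the related kinases. Il7r, the receptor chain for interleukin 7, had the lowest p among those higher in ibrutinib. It was 86.0, 40.2 and 145.7 in Eμ-TCL1 and 146.9, 789.9, 376.4 and 445.3 in Eμ-TCL1;p53R172H/+, a difference of 2.21 without overlap (limma, adjusted p = 0.298). Here the T-cell-rich replicate 1 was the lowest of its group and close to Eμ-TCL1 replicate 4. Jak1, which pairs with JAK3 at these receptors, was at 1.05, Il2ra, a chain of the interleukin 2 receptor, at -1.34 and Il9r at -2.59. In DMSO, Il2rg, the common gamma chain, was at 0.97, Il4ra at 0.57, Il9r at -2.63 and Il2ra at -0.29. The interaction was 1.91 for Il7r, 0.80 for Il2rb, -1.05 for Il2ra and -0.37 for Stat5a.

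Of the partners of Tec kinases in T-cell receptor signaling, 10 were listed in DMSO and 9 in ibrutinib, and 0 passed. All were above 0 in each table, with medians of 0.86 and 2.03, beside 8777 of 16470 genes in DMSO and 7491 of 16428 in ibrutinib. In ibrutinib 6 of 9 had an unadjusted p under 0.05 with Eμ-TCL1;p53R172H/+ higher and 6 did not overlap, against 5.69% and 6.68% of all genes in that direction. Cd28, the co-stimulatory receptor, was 32.9, 16.1 and 48.7 in Eμ-TCL1 and 199.4, 181.2, 101.6 and 130.7 in Eμ-TCL1;p53R172H/+, with no overlap and a difference of 2.28 (limma, adjusted p = 0.165). Lat, a membrane adaptor, was at 2.03 in ibrutinib. In DMSO, Lck was at 1.66 and Ifng at 0.38, with 0 of 10 at an unadjusted p under 0.05, and the interaction was 1.51 for Cd28 and 1.15 for Sh2d2a. Cd28 is also 1 of the 9 T-cell markers, of which 9 were above 0 and 5 did not overlap in ibrutinib.

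For each kinase, the genes with the most similar pattern were ranked over the 8 DMSO libraries among 10731 genes, as a description, since these libraries fall into clusters by cell mixture and share 1 table. Among the genes most like Blk were Cd38 and Lsp1, with Pearson correlations of 0.998 and 0.996 on the log2 scale in DMSO and of 0.984 and 0.812 over the 7 ibrutinib libraries. Btk was most like Rnf216, Lyl1 and Lyn, at 0.995, 0.995 and 0.994 in DMSO and 0.983, 0.926 and 0.993 in ibrutinib.

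The genes most like Txk were Itm2a, A930002I21Rik and Dmrta1, at 0.997, 0.997 and 0.995 in DMSO and 0.961, 0.972 and 0.988 in ibrutinib. Bmx was most like Trem3, a receptor of myeloid cells, Fpr1, the formyl peptide receptor, and Svip, each at 0.999 in DMSO and at 0.995, 0.988 and 0.985 in ibrutinib, and these values rest on 1 high library a table. The likeness of Tec and Jak3 held less well between tables. Tec was most like Ring1, Atp9b and Gtf2h5, at 0.9798, 0.979 and 0.978 in DMSO but 0.556, 0.387 and 0.480 in ibrutinib, and Jak3 was most like Ash2l, Il12rb1 and Unc5cl, at 0.979, 0.977 and 0.976 and then 0.832, 0.727 and 0.790.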

How the data were processed

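RNA from cultured spleen cells was sequenced on an Illumina platform. According to the submitters' processing notes, TopHat2 2.0.12, SAMtools 0.1.19, HTSeq and edgeR were used, with GENCODE M2 on GRCm38 named in the study's methods. The deposited signal values are reads per gene that the authors filtered for low CPM, normalized to an effective library size in each table and rounded to 0.1. A read is worth less than this step, so whole reads were not recoverable, count tests were not run, and sequencing depth and counting error are unknown.

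Columns were assigned to genotype, treatment and replicate by their labels. Genotypes were compared within each table with limma 3.58.1 (lmFit, eBayes with trend) in R 4.3.3 on the log2 of the value plus 1, over 16470 genes in DMSO and 16428 in ibrutinib, adjusted after Benjamini-Hochberg with the threshold at 0.05, and the interaction over 15869 genes in all 15 libraries. Single values and relative levels were compared in Python 3.11.15 by exact permutation tests, two-sided. The limma steps were tested on simulated data in which 200 genes had a known change. Figures used matplotlib 3.10.9.

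Markers were fixed lists for B cells (8 genes, among them Cd79a, Cd79b, Ms4a1, Cd22, Pax5, Ebf1, Fcrla), T cells (Cd3d, Cd3e, Cd3g, Cd2, Cd4, Cd8a, Cd8b1, Thy1, Cd28), natural killer, myeloid, endothelial, megakaryocytic and erythroid cells. Natural killer markers summed to at most 85.8 in Eμ-TCL1 and reached 920.8 in Eμ-TCL1;p53R172H/+, megakaryocyte and platelet markers to at most 93.1 in any library. All 6 kinases were named, and from each list the 2 genes with the lowest p per direction, plus the 3 most alike genes per kinase. Some genes that these rules name are not reported here. The kinases, lists and rules were chosen with earlier results of these data known. Sequences and gene models came from GENCODE M21. No protein table was used here, and coding sequences were translated.

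Alternative settings were a pseudocount of 0.1 or 5, only genes averaging 5 or more, rescaling to equal sums, a replicate block, quantile normalization, weights for sample quality, the median over markers, libraries with few B-cell transcripts left out and each library left out. Leaving out the myeloid-rich libraries as well, the block without an unmatched pair, the exact permutation test of pair differences, and the length over all exons, were chosen after seeing the data.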

Additional observations from a re-analysis of the deposited data

Results flagged for a closer look

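Within groups of 4 or more libraries, 26 sets of values were looked at for a library far from the rest, and 2 stood out, where chance alone marks about 1 in 20. Bmx had a value of 2.5 in Eμ-TCL1;p53R172H/+ replicate 3 in ibrutinib, against 0.1 to 0.3 in the other 3 libraries of the group. Tec relative to the B-cell markers was 3.91 on the log2 scale in Eμ-TCL1;p53R172H/+ replicate 1 in ibrutinib, against -0.12 to 0.41 in the other 3, and this library had the lowest B-cell marker sum of all, 64.1.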

How the results depend on the processing

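The count of kinases past the threshold was 0 in each comparison and stayed 0 in all 116 alternatives to these counts. The exact permutation tests among them could hardly give another count. With all libraries they allow no p below 0.0179 in DMSO and 0.0286 in ibrutinib, so a kinase alone could not pass after adjustment. Fewer libraries raise this floor, and for the pair differences it is 0.0667 or 0.1. By limma, 0 to 2 of 6 kinases had an unadjusted p under 0.05. The shares over all genes in the main fits were 8.17% in DMSO, 12% in ibrutinib and 0.523% for the interaction. Directions of single kinases held in 459 cases and turned in 50, in each case for a difference that did not pass, and where no library was left out the cause was not tested. Over all genes, the count in DMSO went from 2 to 803 with sample quality weights, 6 with a pseudocount of 5, 0 with the replicate block, 12 without the T-cell-rich and myeloid-rich libraries, 61 when Eμ-TCL1 replicate 2 was left out, 0 for replicate 3 of that genotype and 5 for replicate 4 of Eμ-TCL1;p53R172H/+. In ibrutinib it went from 0 to 28 with weights, 2 with rescaling, 24 when Eμ-TCL1 replicate 1 was left out and 5 for replicate 5 of Eμ-TCL1;p53R172H/+.

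With sample quality weights Txk in DMSO became -0.59 and the Jak3 interaction 0.48. Without the T-cell-rich libraries Txk in DMSO was -0.48 and Blk 0.94. Relative to B-cell markers Jak3 was then -1.25 in DMSO and -0.19 in ibrutinib, and relative to T-cell markers Txk was -0.0499 and -0.0426 and Tec in DMSO 1.44. Without the myeloid-rich libraries as well, Txk in DMSO was -0.60, Bmx in ibrutinib 0.25 and the Jak3 interaction 0.20. Relative to B-cell markers Btk was then 0.25 in DMSO and 0.44 in ibrutinib, Blk -0.0143 and -0.0384 and Jak3 in DMSO -0.84, and relative to T-cell markers Txk was -0.15 and -0.12 and Tec in DMSO 1.13.

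With each library left out in turn, the difference ran from -1.94 to 0.0585 for Blk and from -0.62 to 0.41 for Jak3 in DMSO, and from -2.26 to 0.0869 for Bmx in ibrutinib. The interaction ran from -0.93 to 0.63 for Btk, from -0.73 to 0.0725 for Tec, from -0.0500 to 1.43 for Txk, from -1.03 to 2.18 for Bmx, from -1.78 to 0.57 for Blk and from -0.83 to 0.20 for Jak3. Relative to B-cell markers in DMSO, Btk ran from -1.27 to 0.19, Blk from -0.12 to 0.31 and Jak3 from -0.0336 to 1.41. In ibrutinib Btk ran from -0.92 to 0.48, Blk from -0.0675 to 0.28 and Jak3 from -0.19 to 1.82. Relative to T-cell markers, Tec in DMSO ran from -0.87 to 0.57 and Txk in ibrutinib from -0.0426 to 0.67.

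Libraries with the same replicate number in both genotypes are linked in the labels by that number only, and whether they share more is not stated. Their deviations from the group means correlated at 0.19, 0.28 and 0.05 in DMSO and -0.05, -0.20 and -0.18 in ibrutinib, and 5 of 6 libraries in DMSO and 0 of 6 in ibrutinib were closest to their own number in the other genotype. With the replicate block 0 kinases passed in each comparison, and 1 of 6 in DMSO and 2 of 6 in ibrutinib had an unadjusted p under 0.05, against 5.89% and 9.07% of all genes in that fit. For the interaction the block was the pair of like-numbered libraries of a genotype in both treatments. Of these pairs 5 of 6 deviated together, which was not set against unlike numbers. The Jak3 interaction was with this block 0.14, and that of Tec 0.0416 without the unmatched pair. Few libraries, uneven cell mixtures and unknown depth limit all comparisons.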
